A study of Homo sapiens with 6 samples.

Results

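EGR1 binding was profiled by chromatin immunoprecipitation and sequencing (ChIP-seq) in the cell line THP-1, which was established from a human acute monocytic leukaemia. For 48 hours the cells had received either DMSO as the control or an agent that the submitters name OPA1 and that the labels do not describe further. The regions described are all EGR1 peaks on chromosomes 1 to 22 and X: 508 in DMSO and 506 in OPA1, together 1014. With no limit on chromosomes, the 4 lists of the series held 3606 peaks, 1028 of them EGR1 peaks. The other lists are TET2 peaks of the same cells. There was 1 EGR1 library and 1 input library (chromatin sequenced with no antibody step) per treatment, so every difference between treatments below compares 1 library with 1 library and has no replicate check and no test. After removal of duplicate positions the EGR1 libraries held 19900311 tags in DMSO and 19835572 in OPA1. A peak list measures no expression, so markers of the cell line could not be examined in it.

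EGR1 is an immediate early gene product, a transcription factor with zinc fingers that is made soon after a growth or stress signal. It binds GC-rich DNA, mostly at gene promoters, through a site written GCGTGGGCG or GCGGGGGCG, and its activity is damped by the NAB co-repressors. In myeloid cells it is known for promoting differentiation along the monocyte path.

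Peaks over gene starts are shown first, because these are the places where EGR1 is known to act. RefSeq promoter windows (GRCh38.p14, 250 bases before and 50 bases after a gene's start) were at hand for 15811 of the 19970 protein-coding genes on these chromosomes. In DMSO 5 peaks lay over such windows and marked 6 genes (0.0379% of the genes with a window): PGK1, ING1, RTCA, WWTR1 and the pair IMMP1L and ELP4, which start back to back. In OPA1 10 peaks marked 12 genes (0.0759%): PGK1, EEF1A1, POLG, PSMD3, CHMP4B, RPS7, NIBAN2, OR1F1 and the pairs ASNSD1 and ASDURF, and ACYP1 and ZC2HC1C. Of the peaks on chromosomes with windows at hand, these were 5 of 482 in DMSO (1.04%, Wilson 95% interval 0.444 to 2.41%) and 10 of 478 in OPA1 (2.09%, 1.14 to 3.81%), and the intervals overlap. All intervals in the text cover counting error only.

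The sequences below are the 250 bases before the start of 4 of these genes, read 5′ to 3′ on the gene's strand: PGK1 stood in both lists, EEF1A1 had the most tags among the promoters of the OPA1 list alone, ING1 had the most among those of the DMSO list alone, and PSMD3 held no match. Capitals mark matches, on either strand and merged where they overlap, to the relaxed EGR1 pattern GNGNGGGNG. The positions are chrX:78103998-78104247 (plus strand) for PGK1, chr6:73521033-73521282 (minus strand) for EEF1A1, chr13:110713011-110713260 (plus strand) for ING1 and chr17:39980557-39980806 (plus strand) for PSMD3.
PGK1: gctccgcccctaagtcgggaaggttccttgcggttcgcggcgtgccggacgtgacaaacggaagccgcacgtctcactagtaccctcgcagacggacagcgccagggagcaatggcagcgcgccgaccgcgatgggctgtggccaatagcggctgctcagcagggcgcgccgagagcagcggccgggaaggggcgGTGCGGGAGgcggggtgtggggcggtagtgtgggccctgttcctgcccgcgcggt
EEF1A1: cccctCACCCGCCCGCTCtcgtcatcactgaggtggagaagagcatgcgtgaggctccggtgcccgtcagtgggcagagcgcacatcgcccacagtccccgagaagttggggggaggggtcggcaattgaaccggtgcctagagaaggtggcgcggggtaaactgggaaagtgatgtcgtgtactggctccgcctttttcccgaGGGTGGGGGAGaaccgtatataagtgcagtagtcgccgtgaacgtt
ING1: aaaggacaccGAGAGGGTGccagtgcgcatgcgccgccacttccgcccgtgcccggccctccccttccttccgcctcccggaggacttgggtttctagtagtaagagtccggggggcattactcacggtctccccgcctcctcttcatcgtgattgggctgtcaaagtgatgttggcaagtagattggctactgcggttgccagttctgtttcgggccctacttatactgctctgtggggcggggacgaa
PSMD3: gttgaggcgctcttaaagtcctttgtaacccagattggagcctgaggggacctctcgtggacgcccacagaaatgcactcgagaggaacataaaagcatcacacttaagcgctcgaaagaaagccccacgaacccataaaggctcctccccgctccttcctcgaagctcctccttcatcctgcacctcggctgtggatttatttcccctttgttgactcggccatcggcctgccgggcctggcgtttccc

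The full-length patterns were absent from these windows. GCGTGGGCG stood in 0 of the 6 windows with a DMSO peak and 0 of the 12 with an OPA1 peak, against 1.04% of all 22131 windows, and GCGGGGGCG in 0 and 0 against 6.50%. The relaxed pattern GNGNGGGNG was found in 3 of 6 and in 6 of 12 windows, 50% in each case, and in 55.0% of all windows. Such a match describes the letters of a window, and the windows with a peak are few. The median GC content was 59.7% for DMSO and 64.3% for OPA1, beside 62.3% for all windows.

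Peak by peak, the promoter regions differed widely in tags. PGK1, the gene of a glycolytic kinase, had 172 tags in DMSO and 98 in OPA1, with the summit 140 and 86 bp before the gene's start. TET2 peaks of 100 tags in DMSO and 73 in OPA1 overlapped it. At the other position shared by the lists, beside RNU6-1, EGR1 had 74 tags in DMSO and 17 in OPA1, and TET2 20 and 26. The tags of EGR1 were thus fewer in OPA1 at both positions, and those of TET2 at PGK1 only. EEF1A1, the gene of a translation elongation factor, had 53 tags in OPA1 over its start and a second peak of 25 tags just inside the gene. No DMSO peak lay within 6941429 bp of it. ASNSD1, with the small upstream frame ASDURF, had 17 tags in OPA1. POLG, the mitochondrial DNA polymerase gene, and PSMD3, a proteasome subunit gene, had 13 each, with summits 210 and 205 bp before the start. ING1, a growth inhibitor and chromatin reader gene, had 13 tags in DMSO, in a peak that also lay inside CARS2, a mitochondrial tRNA synthetase gene. The remaining promoter peaks, given above for completeness whatever their values, held 8 to 11 tags, and 8 was the smallest number in either list.

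Counting a peak centre within 1000 bp of either end of a protein-coding gene, which needs no strand and takes in chromosome 8 (26 DMSO and 28 OPA1 peaks), whose promoter windows were not used here, gave 17 DMSO peaks (3.35%, 2.10 to 5.29%) and 22 OPA1 peaks (4.35%, 2.89 to 6.50%). In OPA1 this added the EGR3 peak of 17 tags on chromosome 8, 22693403 to 22693797, with its centre 120 bp beyond the gene. It also added a peak of 13 tags between PRKDC, a DNA repair kinase gene, and MCM4, a replication helicase gene, on chromosome 8, 47960048 to 47960329. In DMSO the further peaks of most tags lay at HJV, the haemojuvelin gene of iron control (14 tags), SLC38A2, an amino acid transporter gene (13), AMBN and KLHL5 (10 each) and PGA5, a pepsinogen gene (9). IRF5, an interferon regulatory factor gene active in monocytes, had a peak of 9 tags in OPA1 at chromosome 7, 128949095 to 128949260; it was chosen after its value was seen. A TET2 peak of 10 tags overlapped the IRF5 peak in OPA1. Within 5000 bp of a start in the promoter table lay 26 of 482 DMSO peaks (5.39%, 3.71 to 7.79%) and 42 of 478 OPA1 peaks (8.79%, 6.57 to 11.7%), and the intervals overlap. Among peaks with a false discovery rate of 20% or less, gene-end peaks numbered 13 of 391 in DMSO and 7 of 57 in OPA1. The count was thus lower in OPA1 and the share higher.

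Next, the number of tags per peak was compared, since a peak of few tags is hard to call again in another library. Both lists were made mostly of small peaks: the median was 9 tags in each, and 43.7% of DMSO peaks and 38.1% of OPA1 peaks held exactly 8. Peaks with 13 or more tags numbered 40 in DMSO (7.87% of the list, 5.84 to 10.5%) and 61 in OPA1 (12.1%, 9.50 to 15.2%). At 20 or more tags there were 7 and 13 peaks. On either side of the limit, 22 DMSO and 21 OPA1 peaks held 12 tags (median folds over local background 9.84 and 9.90), and 15 and 19 held 13 (9.53 and 10.1). At 10 tags the lists held 167 (DMSO) and 189 (OPA1) peaks, and at 15 tags 17 and 32, while the single highest peak was that of DMSO. The order of these counts depended on the false discovery rate. Among peaks at 20% or less, 30 of 391 in DMSO and 16 of 57 in OPA1 held 13 or more tags. As a share of the peaks kept, OPA1 thus stayed higher.

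**Figure D1:**
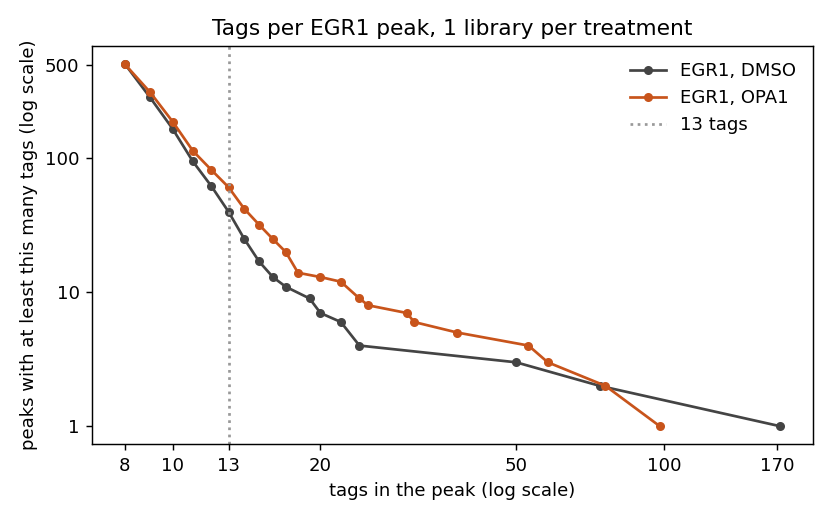
Number of EGR1 peaks (y axis, log scale) with at least the number of tags on the x axis (log scale), for the DMSO and the OPA1 library. At 13 tags the curves stand at 40 and 61 peaks, and the points farthest right are the PGK1 peaks of 172 and 98 tags.

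Most peaks rich in tags were long and had lower folds than the small ones, but the highest folds of each list were among them too, at PGK1 (60.8 in DMSO and 43.9 in OPA1) and, in DMSO, beside RNU6-1 (22.7). In DMSO the median fold was 8.10 for peaks with 13 or more tags and 11.9 for those with 8 to 12, and in OPA1 8.42 and 11.6. Median lengths were 278 against 190 bp and 296 against 200 bp. The fold is the authors' value and sets a peak against local background, in lists called against the input of each treatment. Why most peaks rich in tags had lower folds was not tested. Only 2 of the 40 peaks in DMSO and 4 of the 61 in OPA1 had a false discovery rate, as the caller gave it, of 5% or less. These were PGK1 in both, RNU6-1 in DMSO, and in OPA1 EEF1A1, a peak of 24 tags on chromosome 4 (49510891 to 49511177) and one of 17 tags on chromosome 13 (21242759 to 21243097). The chromosome 4 and chromosome 13 peaks lay 448955 and 63844 bp from the nearest protein-coding gene. Sequences outside promoter windows were not read, so repeats under such peaks were not examined.

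The richest DMSO peaks after PGK1 were the one beside RNU6-1, which encodes the U6 spliceosomal RNA, with 74 tags, and 50 tags in HIVEP3, a zinc-finger gene, at chromosome 1, 41754588 to 41755396. The HIVEP3 peak had a fold of only 4.77. The next 8 peaks, of 24 to 17 tags, lay on chromosome 20 (1 peak of 22 tags) and on chromosome 5 (7 peaks). Among these 7 were NIPBL, the cohesin loader gene, and CTNND2, a delta-catenin gene, with 19 tags each.

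In OPA1, 3 of the 5 richest peaks stood close together on chromosome 1: 76 tags in TRIT1, a tRNA-modifying enzyme gene (fold 3.51), 58 tags 11931 bp from BMP8B (fold 5.94) and 38 tags in BMP8A (fold 5.65), both bone morphogenetic protein genes. TET2 peaks overlapped the latter pair in both treatments, with 75 and 42 tags in DMSO and 146 and 56 in OPA1. The other rich OPA1 peaks held 31 tags on chromosome 21 (8993880 to 8994415), 30 on chromosome 4 (49109855 to 49110122), and 22 each in EGFLAM, an extracellular matrix gene, on chromosome 1 (225715511 to 225715956) and on chromosome 5 (37955842 to 37956279).

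Peaks of 13 or more tags were gathered on the first part of chromosome 5. Of the 40 such peaks in DMSO, 13 (32.5%) lay below position 50000000 of that chromosome, and so did 14 of the 61 in OPA1 (22.95%). Within this stretch 13 of 18 DMSO peaks (72.2%, 49.1 to 87.5%) and 14 of 21 OPA1 peaks (66.7%, 45.4 to 82.8%) reached 13 tags. In the rest of chromosome 5 none of 25 and none of 21 did, and on the other chromosomes 5.81% (4.02 to 8.32%) and 10.1% (7.70 to 13.2%). Of those, chromosome 8 stood out in OPA1, with 10 of 28 peaks at 13 or more tags, against 3 of 26 in DMSO. For TET2 on chromosome 8 these were 108 of 137 in OPA1 and 25 of 63 in DMSO. The stretch and chromosome 8 were chosen after the values were seen. Median tags in the chromosome 5 stretch were 15 and 14, with median folds of 7.63 and 8.66, against 8 and 9 tags with folds of 11.9 and 11.6 in the rest of chromosome 5. TET2 lists had the same order, with medians of 13 and 23 tags in the stretch and 8.5 and 10 in the rest of chromosome 5. The copy number of chromosome 5 in these cells was not measured here, and its part in these values was not tested.

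Among these chromosome 5 peaks, CDH12, a cadherin gene, carried 15 tags in DMSO (22286220 to 22286496) and CDH18, its relative, 14 in OPA1 (20144215 to 20144467). MARCHF6, a ubiquitin ligase gene of the endoplasmic reticulum, carried 17 in OPA1. PTGER4, a prostaglandin E receptor gene, was chosen with MARCHF6 after its value was seen; it had 13 tags in OPA1 (40694633 to 40694891), and the nearest DMSO peak, of 22 tags, lay 181679 bp away. No peak of this stretch overlapped one of the other treatment.

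By chromosome, the density of EGR1 peaks differed from X to the autosomes in both libraries. Chromosome X carried 1 peak in each list, that of PGK1, or 0.0641 peaks per 10 Mb. Autosomes ranged from 0.443 to 2.37 per 10 Mb in DMSO (median 1.82) and from 0.721 to 2.57 in OPA1 (median 1.73). TET2 peaks were also sparse on X, with 4 in DMSO and 13 in OPA1. Between the treatments the numbers stood apart most on chromosome 1 (57 in DMSO and 41 in OPA1), chromosome 10 (24 and 12), chromosome 16 (4 and 14) and chromosome 21 (3 and 12). The exact Poisson 95% intervals overlapped on each of the 23 chromosomes.

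**Figure D2:**
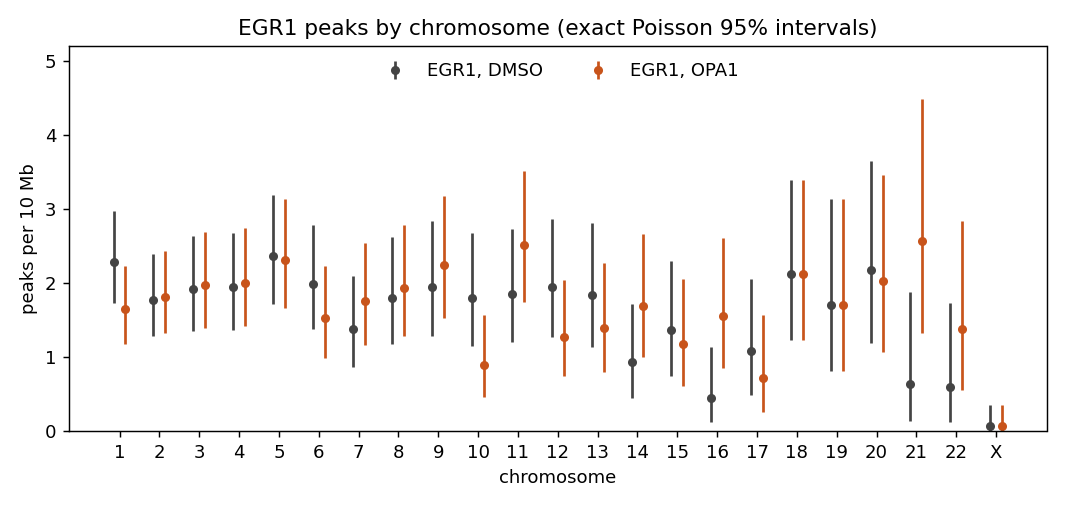
EGR1 peaks per 10 Mb (y axis) on each chromosome (x axis) for DMSO and OPA1; bars are exact Poisson 95% intervals of the peak numbers, and length is taken up to the last annotated gene. The intervals of both treatments overlap on every chromosome, and X stands lowest with 1 peak in each.

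The positions of the lists were then set against each other. Only the PGK1 and RNU6-1 peaks overlapped, with centres 48 and 13 bp apart. For the other peaks the nearest neighbour in the other list was usually megabases away: the median distance was 2084928 bp from DMSO to OPA1 peaks (95% interval of the median over peaks 1888000 to 2363403) and 2124368 bp from OPA1 to DMSO peaks (1821696 to 2383085). Peaks of the same list were not farther from each other than that, with median distances of 1653169 bp in DMSO and 1613004 bp in OPA1. Within 10000 bp of a peak of the other list lay 4 DMSO peaks (0.787%), and within 100000 bp 19 (3.74%, 2.41 to 5.77%). From the OPA1 side 20 lay within 100000 bp (3.95%, 2.57 to 6.03%). Within their own list 8 DMSO peaks (1.58%) and 22 OPA1 peaks (4.36%) had a neighbour that close.

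**Figure D3:**
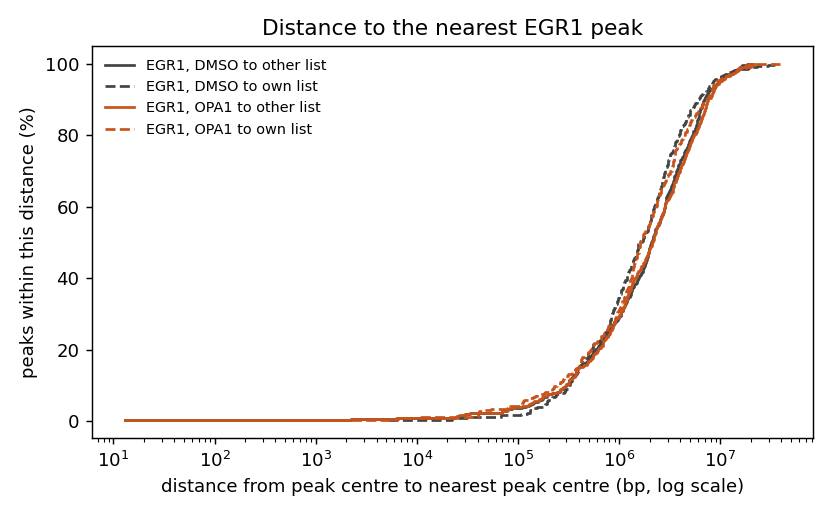
Percentage of EGR1 peaks (y axis) with another EGR1 peak within the distance on the x axis (bp, log scale); solid lines measure to the list of the other treatment and dashed lines to other peaks of the same list. The curves have medians of 1613004 to 2124368 bp.

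The closest pair that did not overlap was inside XPR1, the phosphate exporter gene on chromosome 1. Its DMSO peak (11 tags, 180725779 to 180726030) lay 2226 bp from an OPA1 peak (9 tags, 180723578 to 180723779), and a second OPA1 peak of 11 tags lay 81758 bp from the DMSO peak. The next pairs were 6494 bp apart on chromosome 11, 33926 bp or more from CWF19L2, and 15126 bp apart on chromosome 4, beyond UNC5C, a netrin receptor gene. A further pair lay 24876 bp apart at QRSL1, a mitochondrial amidotransferase gene on chromosome 6. All of these peaks held 8 to 11 tags.

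The median distance to the other list was 1237442 bp for DMSO peaks with 13 or more tags and 2159604 bp for smaller ones, and 1601797 and 2195885 bp in OPA1. Few of these rich peaks had a neighbour close by. Of the 40 DMSO peaks with 13 or more tags, 2 had an OPA1 peak within 100000 bp, and these were PGK1 and RNU6-1. Of the 61 in OPA1, 3 had a DMSO peak that close: the same pair and a peak of 16 tags on chromosome 1, 33833 bp from a DMSO peak of 12 tags. One near pair of amino acid transporter genes stood in different lists, SLC38A2 with 13 tags in DMSO and SLC38A1 with 16 in OPA1, 140138 bp apart on chromosome 12; the SLC38A1 peak was chosen after its value was seen.

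Genes were compared next. A gene was counted as marked by any peak whose centre fell between its ends or at most 5000 bp outside them. The DMSO list marked 255 of 19970 protein-coding genes (1.28%) and the OPA1 list 260 (1.3%). Both lists marked 12 genes (0.0601% of all), which is 4.71% of the DMSO genes (2.71 to 8.04%) and 4.62% of the OPA1 genes (2.66 to 7.89%). These were DLG2, FHIT, CCSER1, CTNNA2, DPP10, CNTN5, PTPRT, AOPEP, RAB38, PDE7B, XPR1 and PGK1.

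PGK1 alone was marked at 1 position by both. In the other 11 genes the nearest peaks of the lists lay 2226 to 701082 bp apart, with a median of 286331 bp. Their peaks held 8 to 11 tags, with folds of 7.51 to 19.0 and peak false discovery rates of 17.1 to 25%. All 11 were in the longest 10% of genes, 258258 bp (XPR1) to 2173362 bp (DLG2) long, and 7 were longer than 1000000 bp. PGK1, at 25048 bp, was near the median gene length of 24190 bp.

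Several of these long genes are known for roles at synapses and in cell adhesion. DLG2, a synaptic scaffold gene, had 11 tags in DMSO and peaks of 9 and 8 tags in OPA1, the nearer 526708 bp away. CTNNA2, an alpha-catenin gene of neurons, had 8 tags in each, 701082 bp apart. DPP10, a potassium channel partner gene, had 8 and 8, 286331 bp apart, and CNTN5, a contactin gene, 9 and 8, 74350 bp apart. PTPRT, a receptor tyrosine phosphatase gene, had 10 in DMSO and 9 in OPA1, 492658 bp apart.

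The remaining genes of this group have other roles. FHIT, a tumour suppressor gene at a fragile site, had 9 tags in DMSO and 10 in OPA1, 617891 bp apart, the latter 3.37 kb from the gene's lower end. PDE7B, a cAMP phosphodiesterase gene, had 9 and 10, 135612 bp apart, and RAB38, a GTPase gene of melanosome traffic, 10 and 11, 77262 bp apart. CCSER1 had 8 and 10, 341875 bp apart, and AOPEP, an aminopeptidase gene, 8 and 8, 93361 bp apart. None of these positions repeated between the libraries.

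**Figure D4:**
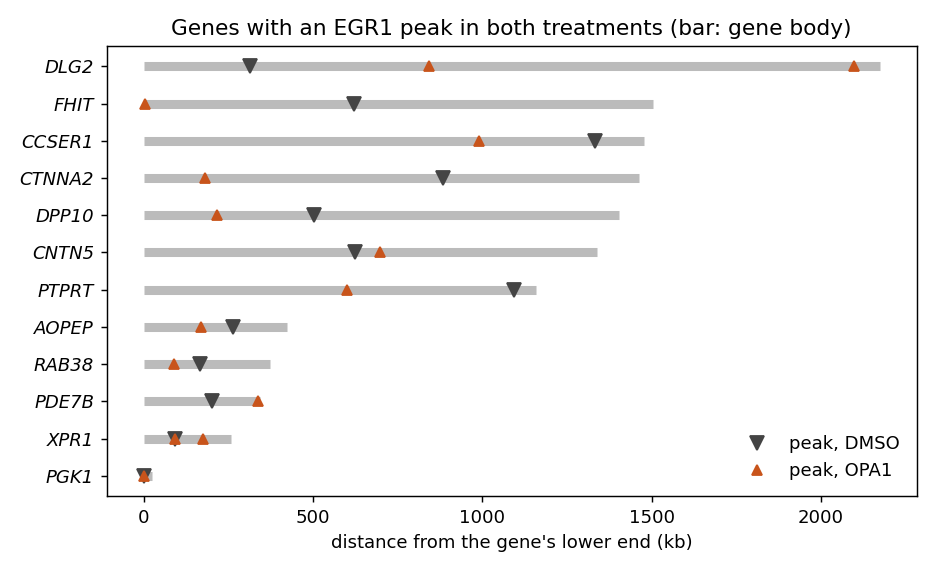
Positions of EGR1 peak centres in DMSO (downward triangles) and OPA1 (upward triangles) along the 12 genes marked in both treatments; grey bars are gene bodies and the x axis is the distance from the gene's lower end in kb. The nearest triangles coincide at PGK1 and lie 2226 bp apart at XPR1, where they cannot be separated by eye. In the other genes the nearest lie 74350 to 701082 bp apart. DLG2 and XPR1 hold a second OPA1 peak, 1783155 and 81758 bp from the DMSO peak.

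Marked genes were long in both lists. Their median length was 154066 bp in DMSO (95% interval of the median over genes 121690 to 205969) and 126501 bp in OPA1 (95941 to 156285), against 24190 bp for all protein-coding genes. The longest 10% of genes, from 152319 bp up, held 129 of the 255 DMSO genes (50.6%) and 117 of the 260 OPA1 genes (45.0%). It also held 47.7% of the summed length of all genes with their flanks. In this class 6.46% of genes were marked in DMSO and 5.86% in OPA1. Of its genes marked in DMSO 8.53% were also marked in OPA1, and of those marked in OPA1 9.40% were marked in DMSO.

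The longest marked genes were, in DMSO, DLG2, FHIT, CCSER1, CTNNA2 and DPP10. In OPA1 they were PTPRD, a receptor phosphatase gene (11 tags), DLG2, EYS, a photoreceptor gene (peaks of 9 and 9 tags), CTNNA3, an alpha-catenin gene (8 tags), and PDE4D, a cAMP phosphodiesterase gene (9 tags). More than 1 peak in the same gene was found for 2 of the 255 marked genes in DMSO, WDR70 and LAMA2. In OPA1 this held for 13 of the 260 marked genes. The peaks of these OPA1 genes held 8 to 12 tags, except at EEF1A1, where the 2 peaks lay 613 bp apart. The OPA1 genes included MECOM, a stem cell and leukaemia regulator gene (8 and 8 tags, 312098 bp apart), TLK1, a chromatin kinase gene (9 and 9 tags, 6191 bp apart), DLG2, XPR1 and EEF1A1. WDR70, LAMA2 and TLK1 were chosen after their values were seen.

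At short genes the lists parted in numbers of genes, less so in numbers of peaks. Of the genes shorter than the median, 19 were marked in DMSO (7.45% of its marked genes, 4.82 to 11.3%) and 43 in OPA1 (16.5%, 12.5 to 21.5%). Per length of gene plus flanks, these shorter genes held 9.65 pairs of a gene and a peak per 100 Mb in DMSO (exact Poisson interval 5.81 to 15.1) and 22.3 in OPA1 (16.2 to 30.0). Genes longer than the median held 18.4 (16.1 to 20.9) and 17.7 (15.5 to 20.1). In peaks, 19 of 508 DMSO peaks (3.74%, 2.41 to 5.77%) and 37 of 506 OPA1 peaks (7.31%, 5.35 to 9.92%) lay at a gene shorter than the median. Counted in peaks, the intervals of the treatments overlap. Pairs that share a peak are not independent, which the Poisson intervals do not cover.

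The gap lay in the flanks. With the gene body alone, 13 genes shorter than the median were marked in DMSO and 13 in OPA1. In the 5000 bp flanks alone there were 6 in DMSO and 30 in OPA1. Genes with flanking peaks can share 1 peak, as POLG and POLGARF or MCEMP1 and TRAPPC5 do in OPA1, so the numbers of genes are not independent. A false discovery rate of 20% or less leaves 391 DMSO and 57 OPA1 peaks. The order of the counts was then the opposite, with 14 genes shorter than the median marked in DMSO and 8 in OPA1. These were 14 of 199 marked genes in DMSO and 8 of 32 in OPA1, so the share stayed higher in OPA1.

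**Figure D5:**
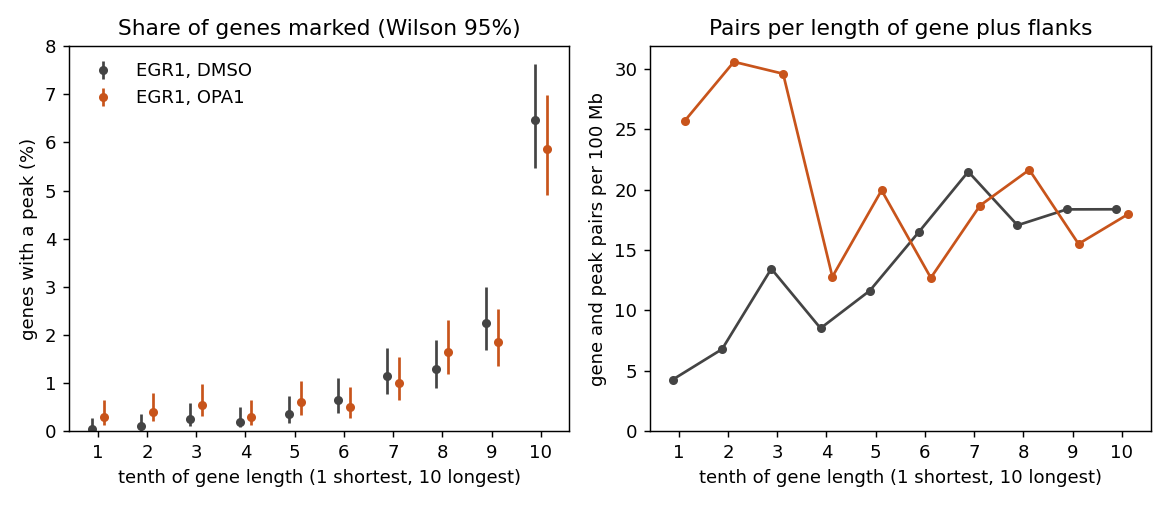
Left, percentage of protein-coding genes with an EGR1 peak (y axis) in each of 10 equal classes of gene length (x axis, 1 shortest) with Wilson 95% intervals; right, pairs of a gene and a peak per 100 Mb of gene plus flanks. The share rises to 6.46% (DMSO) and 5.86% (OPA1) in the longest class, and per length the treatments differ most in the 3 shortest classes, with 4.28 to 13.5 pairs in DMSO and 25.7 to 30.6 in OPA1.

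The shortest genes marked in OPA1 were KRTAP19-8 and KRTAP10-10, keratin-associated protein genes (10 and 8 tags), TAS2R38, a bitter taste receptor gene (10 tags), MRFAP1L1 (9 tags) and MCEMP1, a membrane protein gene of myeloid cells (12 tags, 506 bp from the gene). CXCL5, a neutrophil chemokine gene, followed with 9 tags 2411 bp from the gene and was chosen after its value was seen. In DMSO the shortest were ERICH4 (9 tags), HJV (14), OR5D3, an olfactory receptor gene (12), HTN1, a histatin gene of saliva (8), and ZC3H12A, the gene of an RNase that limits inflammatory mRNAs (10 tags, 2758 bp from the gene). No gene of these groups was marked in both lists.

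Genes of 15 lists were then counted, among them pathways known for this factor or this cell type. All the lists were written with earlier results of these data known, so their counts are descriptions and support nothing. Outside the list of long synaptic and adhesion genes, 5 of 380 list genes were marked in DMSO (1.32%, beside 1.28% of all genes) and 10 in OPA1 (2.63%, beside 1.3%). Of 36 immediate early genes, SPRED1, an inhibitor of RAS signalling, was marked in DMSO (9 tags) and EGR3 in OPA1 (17 tags, fold 7.98). Of 30 textbook EGR1 targets, CSF1R, the macrophage growth factor receptor gene, was marked in DMSO (10 tags, fold 16.6, inside the gene) and 0 in OPA1. The CSF1R peak had a false discovery rate of 44.4%, beside a median of 19.1% in the DMSO list. Among 16 genes of the EGR family and its cofactors, which include NAB1 and NAB2, EGR3 was marked in OPA1 and 0 in DMSO.

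In myeloid and leukaemia lists the counts were as low. Of 30 monocyte markers CSF1R was marked in DMSO and SIGLEC9, an inhibitory sialic acid receptor gene, in OPA1 (13 tags, chromosome 19, 51127754 to 51128042). Of 35 leukaemia and stem cell genes MECOM was marked in OPA1 and 0 in DMSO. The 28 myeloid transcription factor genes and the 28 genes of other lineages had 0 in both lists, as had the 28 apoptosis and 28 cell cycle genes.

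Signalling and metabolic lists held single genes as well. Of 36 genes of opioid and G protein signalling, GNAI3, an inhibitory G protein gene, was marked in DMSO (14 tags, chromosome 1, 109559890 to 109560120) and PDE4D in OPA1 (9 tags). Of 33 interferon and NF-kappaB genes, NFKB1, which encodes a subunit of that factor (10 tags), and EIF2AK2, the gene of a kinase that senses double-stranded RNA (10 tags), were marked in OPA1. In the DNA methylation and TET list ZBTB38, a reader of methylated DNA, was marked in OPA1 (10 tags) and none of the 28 in DMSO. Of 22 glycolysis genes PGK1 was marked in both, and PFKFB3, which controls glycolytic flux, in OPA1 (9 tags). YWHAZ, a 14-3-3 gene (11 tags in DMSO), and EEF1A1 were marked among 24 housekeeping genes.

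The long synaptic and adhesion genes, a list written because earlier results showed such genes, had 11 of 42 members marked in DMSO (26.2%, 15.3 to 41.1%) and 10 in OPA1 (23.8%, 13.5 to 38.5%), 6 of them in both. Of all protein-coding genes 1.28% and 1.3% were marked, and of the longest 10% of genes 6.46% and 5.86%. The members' median length was 1155802 bp. FHIT, described above as a tumour suppressor gene, was a member of this list and was marked in both treatments. Since the list was written after such genes had been seen, its counts describe these libraries and support nothing. Beside the genes named above, CNTN4 (10 tags), NLGN1, a neuroligin gene (8), NTM (12) and CSMD3 (10) were marked in DMSO and OPCML (10) in OPA1.

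The series is titled for opioid receptor signalling and TET enzymes; EGR1 itself, TET2 and the 4 opioid receptor genes were not marked. The peak nearest to EGR1 lay 2658293 bp away in DMSO and 5341868 bp in OPA1. For OPRM1, the mu opioid receptor gene, the distances were 1237616 and 207274 bp, and for OPRK1, the kappa receptor gene, 39285 and 3436056 bp. OPRD1 and OPRL1 were at 5407916 and 7497269 bp in DMSO and 1792024 and 3096448 bp in OPA1, and TET2 at 261987 and 1420913 bp. With lists of about 500 peaks of few tags, a gene without a listed peak is not shown to lack EGR1.

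The TET2 lists offered a second readout of the same cells, called against the same inputs. In DMSO 3 of the 40 EGR1 peaks with 13 or more tags overlapped a TET2 peak of that treatment (7.50%, 2.58 to 19.9%), against 5 of 468 smaller peaks (1.07%, 0.457 to 2.48%). In OPA1 these were 10 of 61 (16.4%, 9.16 to 27.6%) and 14 of 445 (3.15%, 1.88 to 5.21%). Against the TET2 list of the other treatment, 3 of 40 and 3 of 468 DMSO peaks overlapped. For OPA1 peaks these numbers were 9 of 61 and 10 of 445, so the overlaps were not particular to the same treatment. The 3 DMSO peaks included a chromosome 11 peak with a false discovery rate of 75%. The TET2 list was longer in OPA1, with 1683 peaks against 882 in DMSO, so the shares of the treatments are not set against each other.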

How the data were processed

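The deposited files are 4 peak lists, 1 per antibody and treatment, each called against the input of its treatment. Per the file headers, MACS 1.4.2 made them at a p-value limit of 1e-05, with a band width of 200 bp and at most 1 tag per position. Per the submitters' processing notes, Bowtie2 2.2.6, HOMER and GRCh38 (hg38) were used. In the deposited lists tags are read counts per peak, the score is minus log10 of the caller's p-value, scaled by 10, fold is the ratio to local background and the false discovery rate is a percent; all are the authors' values, used only within a list or side by side. Gene positions and promoter sequences came from RefSeq GRCh38.p14.

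Peaks on chromosomes 1 to 22 and X were kept. Overlap meant at least 1 bp, distances ran between peak centres, and intervals were Wilson (shares) or exact Poisson (counts) at 95%, covering counting error only. With 1 library per group, p-values of a difference were not computed. Python 3.11.15, pandas 2.3.3, numpy 2.4.6, scipy 1.17.1 and matplotlib 3.10.9 were used, and the scripts were tested on simulated data. Alternatives were the score, fold, false discovery rate, contigs, overlap rule, gene window and tag limit.

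The members and the 15 gene lists (422 names, all matched) were chosen with earlier results of these data known. Named genes were those marked by both lists, the 10 richest peaks of each list, list genes with a peak, the 8 richest peaks at gene ends or promoter windows, the 5 longest and 5 shortest marked genes, the 5 closest pairs, and EGR1, TET2 and the opioid receptor genes. Others are stated as chosen later. One of the closest pairs is not reported here.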

Additional observations from a re-analysis of the deposited data

Results flagged for a closer look

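Outside chromosomes 1 to 22 and X, the OPA1 list of EGR1 held 9 peaks and the DMSO list 5. These peaks enter none of the comparisons above, and were singled out because the OPA1 number stood above that of the control. The difference rests on 1 library each and was not tested.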

How the results depend on the processing

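Of 130 values recomputed under another setting, 61 stayed within their interval or within 1.5 times and 69 moved. All 18 values with every contig kept their place, and 15 of 18 did at a fold of at least 8, where peaks with 13 or more tags fell to 22 (DMSO) and 34 (OPA1) and shared peaks to 1. A stricter limit leaves fewer peaks by construction, which lengthens distances and lowers counts.

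At a score of at least 60 there were 84 and 87 peaks (DMSO and OPA1), 12 and 25 with 13 or more tags, 1 shared, median distances of 12825500 and 9438231 bp, 37 and 49 genes marked, 5 and 14 of them shorter than the median, 6 and 4 list genes, 3 and 9 peaks near gene ends, 1 gene in both lists, and a median gene length of 72209 bp in OPA1. At a false discovery rate of at most 20% DMSO kept 391 peaks and OPA1 57, with 30 and 16 of 13 or more tags, 199 and 32 genes marked, 14 and 8 of them shorter than the median, 8 and 4 list genes, and 13 and 7 peaks near gene ends. The counts of tag-rich peaks, shorter genes, gene-end peaks and list genes thus stood in the opposite order to the whole lists. The limit keeps unequal shares of the lists. Taken as a share of the peaks or marked genes kept, each was higher in OPA1, as over the whole lists. Shared were 1 peak and 1 gene, and median distances were 15577120 and 2601405 bp. At most 5% left 2 and 4 peaks, all with 13 or more tags, 1 shared, 48 bp apart in the median both ways, with 1 and 2 genes marked, median lengths of 25048 and 15166 bp, 0 and 1 shorter genes, 1 and 2 list genes, 1 and 2 peaks near gene ends and 1 gene in both.

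With gene bodies alone, OPA1 genes had a median length of 165268 bp and 13 were shorter than the median; within 1000 bp these were 26. Within 50000 bp, 503 and 583 genes were marked, with median lengths of 60071 and 51691 bp, 131 and 193 of them shorter, and 24 genes in both. With noncoding genes added, 418 and 438 were marked, with median lengths of 103295 and 67713 bp. Peaks numbered 167 and 189 at 10 tags, 17 and 32 at 15, and 7 and 13 at 20. For moves that a smaller or larger set does not explain by construction, the cause was not tested. No paired analysis was possible because each group had 1 library and the labels carry no replicate numbers. Tags limit precision: a peak of 8 tags has an exact Poisson interval of 3.45 to 15.8.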
